A study of Danio rerio with 24 samples.

Results

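The genotype by tissue interaction at 52 hours post fertilization (hpf) measures how far the young (yng) mutation changed RNA levels differently in the dissected retina and in the whole zebrafish embryo. For each probe set it was the difference between yng and WT retinas minus the difference between yng and WT whole embryos, so that a value above 0 means that the mutant level stood relatively higher in retinas than in embryos. It was computed for all 15502 probe sets of the array that are not controls and compares the means of 12 of the 24 arrays of the series, while all 24 entered the normalization and the estimate of the spread. The groups were yng retinas, WT retinas, yng whole embryos and WT whole embryos, with 3 arrays each, all at 52 hpf. Each array held RNA of a pool of 10 retinas or 10 embryos, and the pools are labelled as biological replicates. Per the labels the fish were of the AB strain where a strain is given, and mutants were staged by their wild-type siblings. The labels do not say whether mutants carried maternal wild-type product, and a whole embryo includes its eyes, so that retinal RNA is also part of the embryo samples. The same 4 groups at 36 hpf, 12 further arrays, were used to compare ages; there the yng retinas came in pools of 20, the other groups in pools of 10, and the fluidics record of yng retina replicate 1 notes an error in filling.

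The yng mutation lies in smarca4a, which encodes Brg1, the ATPase subunit of SWI/SNF chromatin remodelling complexes. These complexes move nucleosomes and are known to be needed when neural progenitors leave the cell cycle and differentiate. In the zebrafish retina, ganglion cells are the first neurons to be born, followed by amacrine, horizontal and bipolar cells, photoreceptors and Müller glia. At 52 hpf these classes are at different stages of maturing.

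The 2 probe sets of smarca4a were set side by side first. The brighter one had intensities of 1247, 1251 and 1246 in yng retinas, against 4039.6, 3961 and 4158 in WT retinas, and 802, 849 and 757 in yng embryos, against 3333, 3134 and 3345 in WT embryos. The mutant level was below the WT level on every array of both tissues, and the log2 difference was -1.61 in retinas and -2.06 in embryos. Its interaction was 0.45 (SE 0.11, adjusted p = 0.0102), a call that was lost without quantile normalization, with median centring and with replicate numbers 1 and 2 alone. The dimmer probe set fell by 1.74 in retinas and by 1.75 in embryos, with an interaction of 0.0094 (adjusted p = 0.997).

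Values are deposited intensities, and differences are on the scale of log2(intensity + 16) after quantile normalization, which understates changes of dim probe sets. The p-values come from limma's moderated test, adjusted over all 15502 probe sets. At 52 hpf the arrays of retinas had median intensities of 156 to 165 and 217 to 241 probe sets listed at 0, against 231 to 241 and 36 to 52 for embryos. Markers followed the labelled tissue. The summed intensity of 44 photoreceptor genes was 43643 to 44857 in WT retinas, against 16455 to 17211 in WT embryos, and that of 55 muscle genes was 3781 to 4201 in WT retinas, against 236075 to 258975 in WT embryos. The log2 ratio of the 3′ to the 5′ control probe set of gapdh, a measure of RNA quality, averaged 3.02 in yng retinas, against 2.66 in WT retinas, and 3.12 in yng embryos, against 2.86 in WT embryos. The ratio therefore moved with genotype in both tissues, by 0.36 and 0.26, and its own interaction was 0.10; its part in the results was not tested. The genotypes were processed on different fluidics stations, which cannot be told apart from genotype, and no 2 groups shared both station and module.

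The interaction passed an adjusted p of 0.05 in 1061 probe sets, 6.84% of those tested. The mutant level stood relatively lower in retinas in 665 probe sets (4.29%) and relatively higher in 396 (2.55%), and 580 of the calls were of at least 1 on the log2 scale. With the replicate number as a block, 1971 probe sets (12.7%) passed, 884 higher and 1087 lower. Of all probe sets, 54.8% had an interaction above 0 and the median was 0.03. For the sizes of error behind these calls, the standard error of the interaction had a median of 0.22 on the log2 scale. Both parts of the interaction can be read on their own. The difference between yng and WT passed in 3057 probe sets (19.7%) in retinas, 1553 higher (10.0%) and 1504 lower (9.7%), and in 915 (5.9%) in embryos, 430 higher (2.77%) and 485 lower (3.13%). Because these comparisons share arrays with the interaction, they describe each call and are no separate support for it.

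Most calls came from a change in the retina. In 511 of the 1061 probe sets (48.2%), the mutant level fell in retinas and did not pass the threshold in embryos, and in 229 (21.6%) it rose in retinas and did not pass in embryos. The embryo led in 172 others, where no retinal change passed: the mutant level fell in embryos in 112 and rose in embryos in 60. In 95 probe sets both tissues changed in the same direction by different amounts, and in 20 they changed in opposite directions. The other 34 passed in neither tissue alone. Of the 172 probe sets led by the embryo, 105 were dim in retinas, meaning that none of the 6 retina arrays reached an intensity of 50, against 16% of all probe sets. For such genes the interaction says that the embryo changed where the retina showed little signal, and a retinal change near the lower end of the intensity scale could not have been measured. The lower end of the scale can therefore give an interaction by itself where a gene changes in embryos and is dim in retinas. A further limit is that fewer cells of a type and less RNA per cell cannot be told apart in these pools.

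**Figure D1:**
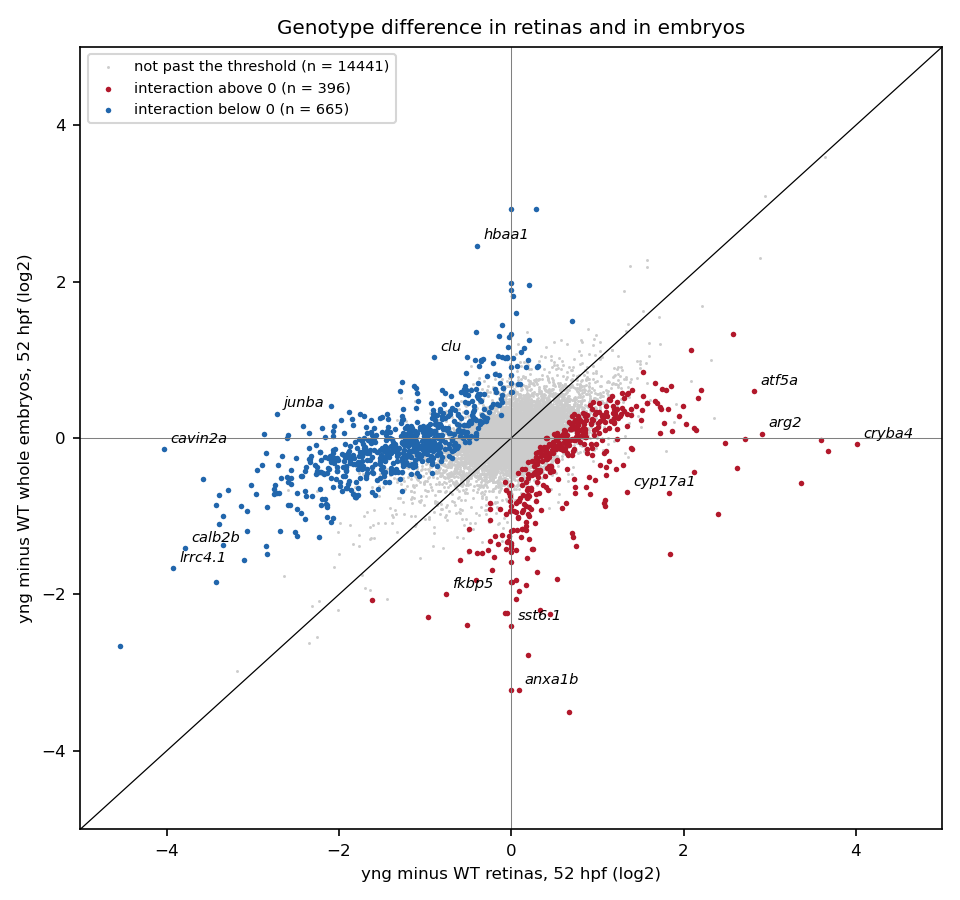
Difference between yng and WT retinas (horizontal axis, log2) against the difference between yng and WT whole embryos (vertical axis, log2) at 52 hpf for 15502 probe sets, with 3 arrays per group. Red points are the 396 interactions called above 0 and blue points the 665 called below 0; the diagonal marks equal differences in both tissues, and most blue points lie left of 0 close to the horizontal line.

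The genes of retinal ganglion cells had the lowest median interaction of the 23 lists, which were chosen with earlier results of these data known. Of 24 measured ganglion cell genes, 14 had a lower interaction and 0 a higher one, with a median of -1.18 against 0.03 for all probe sets. In retinas 20 of the 24 fell, whereas in embryos 1 fell and 1 rose. Counts of every list are read against all probe sets, of which 4.29% had a lower interaction and 2.55% a higher one. Among all probe sets, 9.7% fell and 10.0% rose in retinas, and 3.13% fell and 2.77% rose in embryos. The gene inab, for an internexin of neuronal intermediate filaments, had intensities of 98.2, 159 and 117 in yng retinas, against 815, 889 and 984 in WT retinas, and 253, 454 and 358 in yng embryos, against 471, 506 and 506 in WT embryos. Each yng retina lay below each WT retina by far more than the spread within a group, with a log2 difference of -2.60. Each yng embryo also lay below each WT embryo, with a difference of -0.50 that did not pass (adjusted p = 0.156). Its interaction was -2.10 (SE 0.27, adjusted p = 4.24e-05). The gene stmn2a, for a stathmin of growing axons, measured 262, 293 and 238 in yng retinas, against 1396, 1357 and 1171 in WT retinas, and its interaction was -1.81 (SE 0.28, adjusted p = 0.000257). The embryo values of stmn2a were higher than the retinal ones, 2276 to 2573 in yng and 2589 to 3305 in WT, and their difference of -0.26 did not pass (adjusted p = 0.6). The chemokine receptor gene cxcr4b, with an interaction of -1.65, and robo2, for a receptor that guides retinal axons, with -1.60, also passed, and neither passed in embryos. At 36 hpf 14 of the 24 also had a lower interaction, and the median was -1.15.

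Of 16 measured genes of synapses and vesicle release, 6 had a lower interaction and 0 a higher one (37.5% called, against 6.84% of all probe sets, median -0.55). Of the 16, 10 fell in retinas and 2 in embryos. Leaving out 1 array at a time gave 3 to 5 of the 16, with 3 without WT embryo replicate 3, WT retina replicate 1, yng embryo replicate 2 or yng retina replicate 1. The calcium sensor of vesicle fusion, syt1a, measured 291, 354 and 314 in yng retinas, against 2448, 2606 and 2251 in WT retinas, and 1812, 1733 and 1585 in yng embryos, against 2786, 2904 and 2549 in WT embryos. The genotypes were separate in both tissues, with a log2 difference of -2.71 in retinas and -0.70 in embryos. The interaction was -2.01 (SE 0.28, adjusted p = 6.67e-05), and its second probe set passed in the same direction. For lrrc4.1, a postsynaptic adhesion gene, the log2 differences were -3.92 in retinas and -1.66 in embryos, and the interaction was -2.26 (SE 0.32, adjusted p = 0.000108). The presynaptic adhesion gene nrxn1a measured 10.4, 0 and 24.2 in yng retinas, against 269.5, 209 and 334 in WT retinas (interaction -2.58, SE 0.50, adjusted p = 0.00231). In embryos it measured 156, 156 and 231 in yng, against 297, 293 and 444 in WT. The genotypes were separate there too, but the fall of 0.86 did not pass (adjusted p = 0.206). The complexin gene cplx2a had an interaction of -2.10 (SE 0.59, adjusted p = 0.0327), which was lost on leaving out any of 10 of the 12 arrays. Outside the lists, slc18a3a, which encodes the vesicular acetylcholine transporter, measured 46.6, 38.2 and 31.8 in yng retinas, against 406, 353 and 358 in WT retinas, and 989, 1111 and 1049.9 in yng embryos, against 1242, 1151 and 1136 in WT embryos. The retinal groups were far apart and the embryo groups close to each other, and the interaction was -2.65 (SE 0.17, adjusted p = 6.2e-09).

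Of the 28 genes measured for amacrine, bipolar or horizontal cells, 6 had a lower interaction and 1 a higher one, with a median of -0.28. The share called was 25.0%, against 6.84% of all probe sets. The calretinin gene calb2b measured 292, 292 and 338 in yng retinas, against 5106, 4977 and 5144 in WT retinas, and 615, 568 and 547 in yng embryos, against 1383, 1463 and 1593 in WT embryos. The genotypes were separate in both tissues, with log2 differences of -3.79 in retinas and -1.41 in embryos. Its interaction was -2.38 (SE 0.28, adjusted p = 1.49e-05). The related calb2a fell by 2.71 in retinas and did not pass in embryos (interaction -2.37, SE 0.32, adjusted p = 5.86e-05). The parvalbumin gene pvalb6 measured 34.4, 39.1 and 53.6 in yng retinas, against 619, 548 and 500.3 in WT retinas, and its interaction was -2.63 (SE 0.23, adjusted p = 2.63e-07). It also fell in embryos, by 0.66 (adjusted p = 0.0147). The gene neurod6a, for a transcription factor of neuronal differentiation found in amacrine cells, measured 11.2, 15.6 and 23.8 in yng retinas, against 347, 326 and 321 in WT retinas; embryos fell by 0.73, and the interaction was -2.66 (SE 0.26, adjusted p = 1.3e-06).

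Photoreceptor genes had 10 lower and 1 higher interactions among 44 measured (25.0% called, against 6.84% of all probe sets), with a median of -0.22. Of the 44, 12 were dim in embryos, with no embryo array at an intensity of 50, against 9.7% of all probe sets. For those 12 a fall in embryos could hardly be measured. The gene gngt2b, for the gamma subunit of cone transducin, measured 63.3, 103 and 84.6 in yng retinas, against 279, 311 and 353 in WT retinas, and 38.3, 34.2 and 18.1 in yng embryos, against 27.0, 17.0 and 19.3 in WT embryos. Retinal groups were separate, and embryo values were low in both genotypes and overlapped. Its interaction was -2.07 (SE 0.31, adjusted p = 0.000152). The inhibitory subunit gene of the cone phosphodiesterase, pde6hb, fell by 1.63 in retinas (interaction -1.86, SE 0.32, adjusted p = 0.000771). It was dim in embryos, with 48.1, 48.7 and 39.9 in yng, against 45.5, 32.9 and 32.1 in WT. Its paralogue pde6ha had an interaction of -1.38 on 1 probe set and -0.49 on another, which did not pass (adjusted p = 0.295). The gene aanat2, whose enzyme makes a melatonin precursor in photoreceptors and the pineal organ, measured 63.1, 57.5 and 77.3 in yng retinas, against 422, 253 and 436 in WT retinas, with an interaction of -1.57 (SE 0.29, adjusted p = 0.00136), a call lost at a log offset of 1 (adjusted p = 0.171). For gnat1, the alpha subunit of rod transducin, 1 probe set measured 6.21, 3.08 and 6.82 in yng retinas, against 209, 161 and 175 in WT retinas (interaction -2.27, SE 0.32, adjusted p = 9.1e-05), a call lost at a log offset of 1 (adjusted p = 0.149). It also fell by 0.87 in embryos (adjusted p = 0.0231), with 3.83, 7.03 and 4.41 in yng, against 14.1, 32.0 and 31.6 in WT. These embryo values lie near the lower end of the scale, where the log offset understates a fall. The other probe set of gnat1 had a smaller interaction of -0.75 (adjusted p = 0.00647).

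Of 16 Müller glia genes, 4 had a lower and 1 a higher interaction (31.2% called, against 6.84% of all probe sets, median -0.09). Of these 16, 8 interactions lay on each side of 0, and in retinas 2 rose and 8 fell. The 4 lower ones were rlbp1a, cavin2a, cavin2b and cahz, and cahz is on the blood list as well. Of 24 genes of retinoid metabolism and binding, 5 had a lower and 1 a higher one (25.0% called, median 0.01). Of these 24, 12 interactions lay on each side of 0, and in retinas 6 rose and 7 fell. The retinoid count of 5 was 3 on leaving out any 1 of 7 arrays, and 3 were higher without WT embryo replicate 1. The gene rlbp1a, for the retinaldehyde-binding protein of Müller glia and pigment epithelium, measured 421, 571 and 449 in yng retinas, against 3991, 3757 and 4078 in WT retinas, and 328, 289.9 and 273 in yng embryos, against 852, 776 and 677 in WT embryos. It fell by 2.84 in retinas and fell by 1.38 in embryos, and the interaction was -1.46 (SE 0.21, adjusted p = 0.000104). The cellular retinol-binding protein gene rbp2a is on the list of liver, gut and yolk as well. It measured 20.1, 18.7 and 18.9 in yng retinas, against 301, 218 and 218 in WT retinas (interaction -2.55, SE 0.26, adjusted p = 1.59e-06). Embryos were brighter and overlapped between genotypes, with 1397, 985 and 1050 in yng, against 1841, 1172 and 1302 in WT. The share of its retinal signal that came from material outside the retina was not tested. The retinoid genes rpe65a and cyp26b1 went the other way on their brightest probe sets. In retinas rpe65a rose by 1.215 (adjusted p = 0.00059) and cyp26b1 by 1.61 (adjusted p = 0.0361). Their interactions of 0.92 and 1.13 did not pass (adjusted p = 0.121 and 0.545). Other probe sets of both genes did not all pass in retinas. The largest negative interaction of all named genes was that of cavin2a, a gene of caveolar coat proteins. It was listed at 0 on all 3 arrays of yng retinas, against 286, 209.7 and 266 in WT retinas, and measured 696, 838 and 857 in yng embryos, against 848, 840.0 and 907 in WT embryos. Its interaction of -3.89 (SE 0.14, adjusted p = 1.02e-13) depended in size on the log offset, with -6.02 at an offset of 1 and -2.30 at an offset of 64. Yng retinas listed at 0 added almost no spread to the error estimate, so the p-value of cavin2a does not measure spread between those pools. Its paralogue cavin2b had an interaction of -1.27 (SE 0.21, adjusted p = 0.000498) on 1 probe set and -0.31 on another that did not pass (adjusted p = 0.485).

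**Figure D2:**
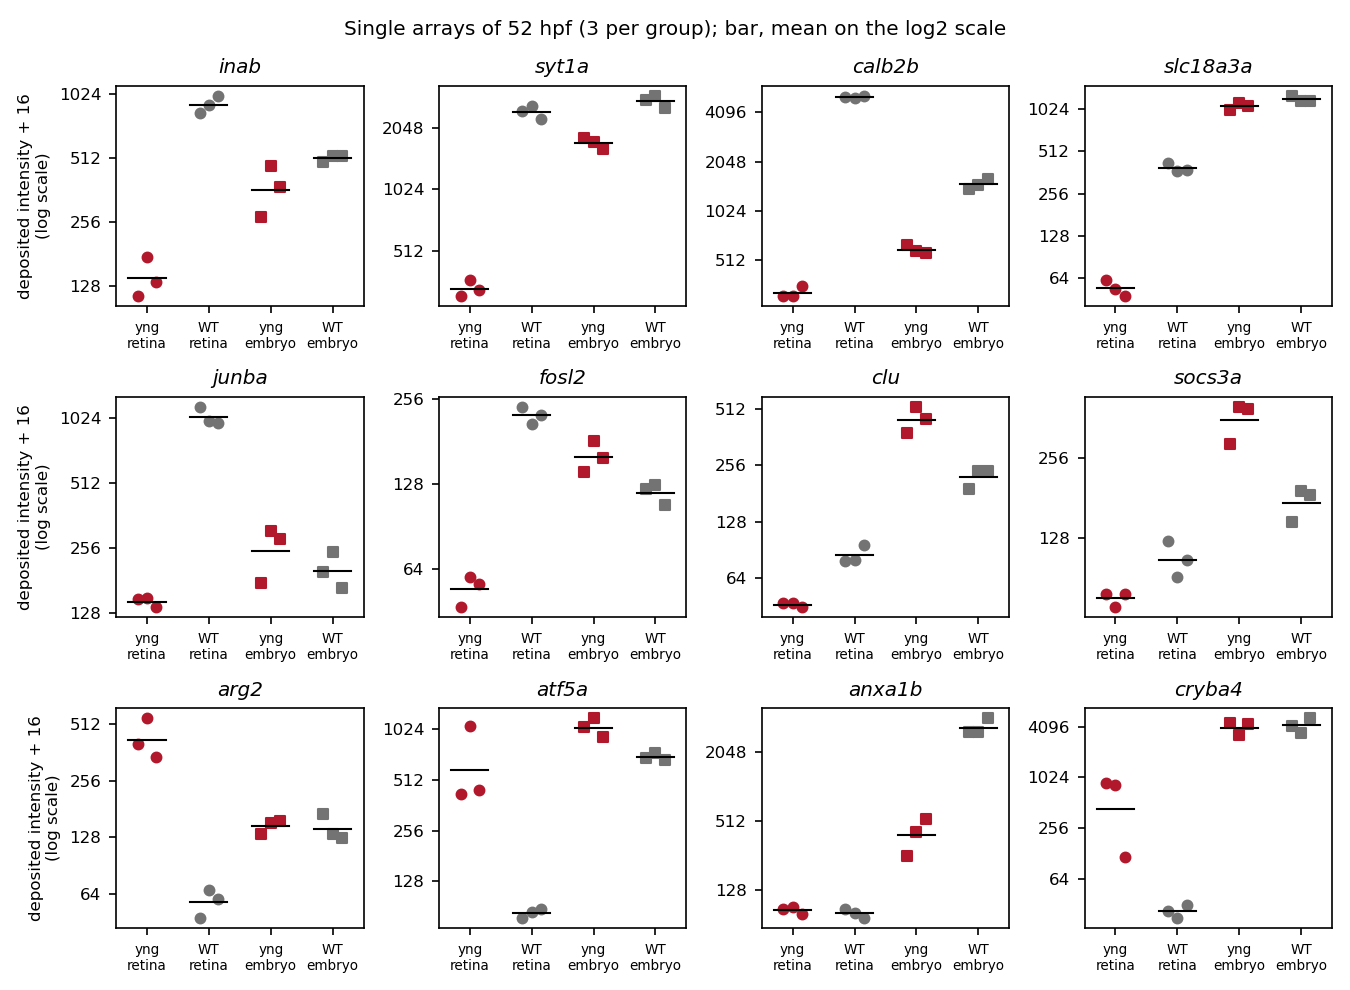
Deposited intensity plus 16 on a log scale (vertical axes, which differ between panels) for 12 named genes on each of the 12 arrays of 52 hpf; circles are retinas, squares are embryos, red is yng, grey is WT, and bars are means on the log2 scale. For inab, syt1a, calb2b, slc18a3a, junba and fosl2 the yng retinas lie far below the WT retinas; for arg2, atf5a and cryba4 they lie above; for anxa1b the embryos differ and the retinas do not; and for clu and socs3a the 2 tissues differ in opposite directions.

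Immediate early genes, which respond within minutes to signals, had interactions on both sides of 0. Of 37 immediate early genes and inhibitors of cytokine signalling, 6 had a lower and 2 a higher interaction, with a median of 0.03. The share called was 21.6%, against 6.84% of all probe sets. Of the 37 interactions, 18 were below 0 and 19 above. In retinas 9 rose and 7 fell, and in embryos 6 rose and 1 fell. The genes described next were among the lower ones. The gene junba, a subunit of the AP-1 transcription factor, measured 132, 133 and 119.7 in yng retinas, against 1131, 968 and 949 in WT retinas, and 159.9, 291 and 265 in yng embryos, against 182, 227 and 150.3 in WT embryos. In WT retinas it was several times brighter than in the other 3 groups, and the embryo groups overlapped. The interaction was -3.03 (SE 0.44, adjusted p = 0.000129). Its partner fosl2 measured 31.0, 44.1 and 41.0 in yng retinas, against 223, 192 and 208 in WT retinas, with an interaction of -2.51 (SE 0.25, adjusted p = 1.48e-06), and all 3 of its probe sets passed in the same direction. The phosphatase gene dusp2, which acts on mitogen-activated kinases, fell by 2.04 in retinas and did not pass in embryos (interaction -1.76, SE 0.23, adjusted p = 3.44e-05).

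Cell cycle genes lay on the other side, with small differences. Of 72 measured, 70 had an interaction above 0, 9 passed as higher and 0 as lower, and the median was 0.37. The share called was 12.5%, against 6.84% of all probe sets. In retinas 41 of the 72 rose and 0 fell, and in embryos 3 rose and 0 fell. The count varied widely: leaving out any 1 of the 12 arrays left 2 to 5. With the replicate number as a block 31 passed as higher (43.1% called, against 12.7% of all probe sets with the block). The checkpoint kinase gene chek1 measured 1147, 1056 and 1101 in yng retinas, against 781, 669 and 714 in WT retinas, and 314, 444 and 429 in yng embryos, against 439.7, 376 and 357 in WT embryos. Retinal groups were separate and embryo groups overlapped, and the interaction was 0.59 (SE 0.16, adjusted p = 0.0298), a call lost on leaving out any of 5 arrays. Another 3 members did not pass and passed with the replicate number or the hybridization day as a block: cdc45, of the replication helicase, had an interaction of 0.61 (adjusted p = 0.0845, 0.00109 with the block), the S-phase cyclin ccne1 0.86 (adjusted p = 0.322, 0.00763 with the block) and the mitotic cyclin ccna2 0.62 (adjusted p = 0.238, 0.00281 with the block). The call of cdc45 also came at a log offset of 64 and without yng embryo replicate 2. Outside the cell cycle list, the linker histone gene histh1l1 measured 7236, 6258 and 6905 in yng retinas, against 5995, 3934 and 4622 in WT retinas. In embryos it measured 2584, 2362 and 2513 in yng, against 3801, 2900.4 and 4107 in WT. Neither tissue passed alone, but the 2 differences had opposite signs and the interaction was 1.07 (SE 0.27, adjusted p = 0.0169), a call lost without WT embryo replicate 3 or WT retina replicate 2.

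Of 38 genes of retinal progenitors and the eye field, 2 had a higher and 4 a lower interaction (15.8% called, against 6.84% of all probe sets). The median of 0.04 changed sign with the scaling, and 2 were lower without yng embryo replicate 2 or yng retina replicate 1. In retinas 7 of the 38 rose and 7 fell. The SoxB2 gene sox21b, which acts in neural progenitors, measured 612, 428 and 535 in yng retinas, against 80.2, 68.7 and 54.4 in WT retinas, and 1185, 927 and 1115 in yng embryos, against 1151, 964 and 1064 in WT embryos. Mutant retinas were several times brighter than WT retinas, and embryos did not separate. Its interaction was 2.72 (SE 0.49, adjusted p = 0.00101). The homeobox gene meis2a went the other way, with a fall of 2.09 in retinas and an interaction of -1.78 (SE 0.38, adjusted p = 0.00437). Of 24 Notch pathway genes, 3 had a higher and 1 a lower interaction (16.7% called, median 0.19). With the block 6 were higher and 1 was lower (29.2% called, against 12.7% of all probe sets with the block). Of the 24 interactions, 19 were above 0, and in retinas 8 rose and 1 fell. The higher count was 0 without WT embryo replicate 3, 1 without WT embryo replicate 2, WT retina replicate 3, yng embryo replicate 1 or yng retina replicate 1, and up to 4 without another array. The Notch target her4.2 measured 1498, 1888 and 1478 in yng retinas, against 679.6, 856 and 744 in WT retinas, and its interaction was 0.81 (SE 0.22, adjusted p = 0.0285), a call lost on leaving out any of 7 arrays. Its relative her2 had 0.81 (adjusted p = 0.0617, 0.0159 with the block). In contrast hey1, also a Notch target, fell by 1.31 in retinas and had an interaction of -1.12 (SE 0.19, adjusted p = 0.000502).

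Among 20 feedback and target genes of FGF signalling, 4 had a higher interaction and 0 a lower one, with a median of 0.31, and the block gave 6 higher and 1 lower. The ligand gene fgf8a measured 210.4, 248 and 199 in yng retinas, against 56.5, 56.6 and 60.7 in WT retinas, and 89.5, 120.4 and 112 in yng embryos, against 62.7, 70.0 and 57.1 in WT embryos. It rose in both tissues, by 1.75 in retinas and by 0.63 in embryos, and the interaction was 1.11 (SE 0.26, adjusted p = 0.00808). The feedback inhibitor il17rd, also called sef, measured 188, 199 and 162 in yng retinas, against 51.8, 62.5 and 31.2 in WT retinas (interaction 1.32, SE 0.30, adjusted p = 0.00798). The FGF-dependent transcription factor genes etv5b and etv4 had interactions of 1.2 and 1.26, and neither passed in embryos. The call of etv4 was lost without WT embryo replicate 2 or yng retina replicate 1 or 2. With replicate numbers 1 and 2 alone, the calls of fgf8a, il17rd and etv4 were lost.

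Of 34 genes of the integrated stress response, 4 had a higher interaction and 0 a lower one (11.8% called, against 6.84% of all probe sets, median 0.21). In retinas 14 of the 34 rose and 2 fell. With the block there were 7 higher and 1 lower (23.5% called, against 12.7% of all probe sets with the block). The transcription factor gene atf5a measured 408, 1052 and 428 in yng retinas, against 61.2, 67.6 and 72.1 in WT retinas, and 1036, 1181 and 905 in yng embryos, against 679, 727 and 654 in WT embryos. Retinal groups were separate, with the second yng pool well above the other two. The rise was 2.82 in retinas, the embryos did not pass, and the interaction was 2.22 (SE 0.30, adjusted p = 5.97e-05). The related atf5b had the same uneven yng pools, 254, 781 and 351, against 118, 128 and 106 in WT retinas, and an interaction of 1.25 (SE 0.32, adjusted p = 0.0174), a call lost without WT embryo replicate 2 or yng embryo replicate 3. The gene stc2a, for a stanniocalcin induced by stress, rose in both tissues, by 1.66 in retinas and by 0.70 in embryos (interaction 0.96, SE 0.21, adjusted p = 0.00523). Outside the lists, arg2, for the mitochondrial arginase, measured 383, 535 and 325 in yng retinas, against 31.7, 51.3 and 44.3 in WT retinas, and 117, 137 and 141 in yng embryos, against 154, 117 and 112 in WT embryos. The yng retinas were the brightest of the 4 groups and the WT retinas the dimmest, while the embryo groups overlapped. The interaction was 2.85 (SE 0.40, adjusted p = 7.34e-05). The gene rcn3, for a calcium-binding protein of the secretory pathway, had an interaction of 2.55 (SE 0.38, adjusted p = 0.000152) and had one of 2.01 at 36 hpf.

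The largest positive interactions of the named genes were of lens crystallins. Of 14 measured lens genes, 5 had a higher interaction and 0 a lower one (35.7% called, against 6.84% of all probe sets). The gene cryba4 measured 856, 807 and 99.6 in yng retinas, against 10.6, 5.51 and 15 in WT retinas, and 4522, 3235 and 4369 in yng embryos, against 4212, 3481 and 5199 in WT embryos. The 3 yng retinas were all above the WT retinas, but the third pool was far below the other two, and embryos of both genotypes were brighter than any retina. The interaction was 4.09 (SE 0.86, adjusted p = 0.0041). The third yng pool was also the lowest for crybb1, with 1535, 2044 and 238 in yng retinas, for crygmxl2, with 403, 617 and 17.9, and for crygm2c, with 107, 104 and 0. In WT retinas crygmxl2 was listed at 0 on all arrays and crybb1 measured 59.4, 55.4 and 65.0. The summed intensity of the 14 lens genes was 1349 to 4632 in yng retinas, against 946 to 1078 in WT retinas, and 13480 to 14910 in yng embryos, against 14068 to 20631 in WT embryos. Whether the pools differed in how much lens was taken with the retina was not tested. Without the third yng retina pool, 6 of the 14 lens genes passed as higher, and crygm2c, at 2.53, was lost without either of the other two. The call of crygmxl2 was lost on leaving out any of 11 of the 12 arrays. Crystallins form a large gene family, and a probe set may read more than 1 of its members.

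Genes of skin and skeleton gave positive interactions of another kind, in which the embryo fell. Of 63 measured, 8 had a higher and 1 a lower interaction (14.3% called, against 6.84% of all probe sets, median 0.17). In embryos 10 fell and 2 rose, and 38 of the 63 were dim in retinas. The annexin gene anxa1b, expressed in skin, measured 71.5, 75.2 and 63.6 in yng retinas, against 72.1, 66.0 and 57.2 in WT retinas, and 242, 398 and 525 in yng embryos, against 3037, 3045 and 4067 in WT embryos. Retinal values overlapped between genotypes, while every yng embryo pool was far below every WT embryo pool. The interaction was 3.31 (SE 0.33, adjusted p = 1.55e-06). The matrix gene aebp1b measured 125, 165 and 144 in yng embryos, against 729, 759 and 678 in WT embryos, while retinas measured 19.8, 0.94 and 1.71 in yng and 4.94, 4.67 and 14.0 in WT (interaction 2.19, SE 0.28, adjusted p = 4.23e-05). The collagen genes col28a2a and col10a1a fell by 2.39 and 1.43 in embryos, with interactions of 1.88 and 1.49, and both were near 0 in retinas. Both calls were lost at a log offset of 1 (adjusted p = 0.348 for col28a2a and 0.349 for col10a1a), and that of col10a1a was lost without WT retina replicate 3 or yng embryo replicate 3. On 1 probe set the calpain gene capn2l was listed at 0 on all 6 retina arrays. It measured 28.8, 18.2 and 18.5 in yng embryos, against 381, 241 and 375 in WT embryos, with an interaction of 3.23 (SE 0.23, adjusted p = 2.08e-08). The brightest probe set of capn2l, which the list counts, did not pass, with an interaction of 0.09. Its embryo means were 1068 in yng and 1099 in WT. Another probe set gave -0.53 and did not pass either. The somatostatin gene sst6.1 was likewise listed at 0 in all retinas and measured 12.6, 27.5 and 6.94 in yng embryos, against 142, 168 and 116 in WT embryos (interaction 2.41, SE 0.25, adjusted p = 2.61e-06). For sst6.1 and the capn2l probe set with the interaction of 3.23, retinas listed at 0 added almost no spread to the error estimate. Their p-values therefore do not measure the spread between retina pools.

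Of 38 genes of blood and leukocytes, 8 had a lower and 0 a higher interaction (21.1% called, against 6.84% of all probe sets, median -0.18). In embryos 8 rose and 0 fell, while in retinas 5 rose and 4 fell. The alpha globin gene hbaa1, whose probe set may also read its close paralogues, measured 48.5, 0 and 60.9 in yng retinas, against 38.7, 32.3 and 57.0 in WT retinas, and 549, 645 and 819 in yng embryos, against 87.4, 105 and 139 in WT embryos. Embryo groups were separate and retinal groups overlapped. The interaction was -2.85 (SE 0.64, adjusted p = 0.00729), and it was lost at a log offset of 1. The metalloproteinase gene mmp9, a leukocyte product, measured 1115, 1123 and 1665 in yng embryos, against 337, 416 and 278 in WT embryos, and 20.2 to 67.4 in yng retinas, against 25.6 to 45.9 in WT retinas (interaction -1.75, SE 0.36, adjusted p = 0.00358). The carbonic anhydrase gene cahz, found in red cells and on the Müller glia list as well, fell by 1.13 in retinas and had an interaction of -1.80 (SE 0.39, adjusted p = 0.0049). The summed intensity of the 38 blood genes was 5121 to 8948 in yng retinas, against 5982 to 6969 in WT retinas, and 39196 to 43594 in yng embryos, against 33832 to 36368 in WT embryos; its part in these calls was not tested.

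Liver, gut and yolk genes had 8 lower and 2 higher interactions among 66 (15.2% called, against 6.84% of all probe sets, median 0.04). In retinas 9 fell and 3 rose, against 9.7% and 10.0% of all probe sets. In embryos 5 fell and 3 rose. The lower count was 5 without WT embryo replicate 2, WT retina replicate 1, yng embryo replicate 1 or yng retina replicate 2. The apolipoprotein gene apobb.1 measured 11.5, 6.45 and 10.8 in yng retinas, against 219.5, 68.5 and 180.2 in WT retinas, and 10568, 11125 and 10696 in yng embryos, against 10139, 9635 and 10877 in WT embryos. Its retinal intensities were a small fraction of those in embryos and were separate between genotypes, while the embryo groups overlapped. The interaction was -2.63 (SE 0.53, adjusted p = 0.00284), and it was lost in 1 alternative. The apolipoprotein gene apoa2 measured 23.7, 37.4 and 23.6 in yng retinas, against 159, 81.7 and 134 in WT retinas, and 13018 to 13866 in yng embryos, against 11919 to 14016 in WT embryos (interaction -1.74, SE 0.28, adjusted p = 0.000336). The list's summed intensity was 4905 to 6128 in yng retinas, against 5975 to 6093 in WT retinas, and the share of it that came from material outside the retina was not tested. For bhmt, a liver enzyme of methionine metabolism, an interaction of -2.92 (SE 0.42, adjusted p = 0.000126) on 1 probe set was set against -0.10 on another, which did not pass (adjusted p = 0.919). The trypsin gene prss1 went the other way through the embryo, with 67.4, 51.1 and 56.5 in yng embryos, against 146, 168 and 141 in WT embryos, and an interaction of 1.28 (SE 0.14, adjusted p = 4.75e-06).

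**Figure D3:**
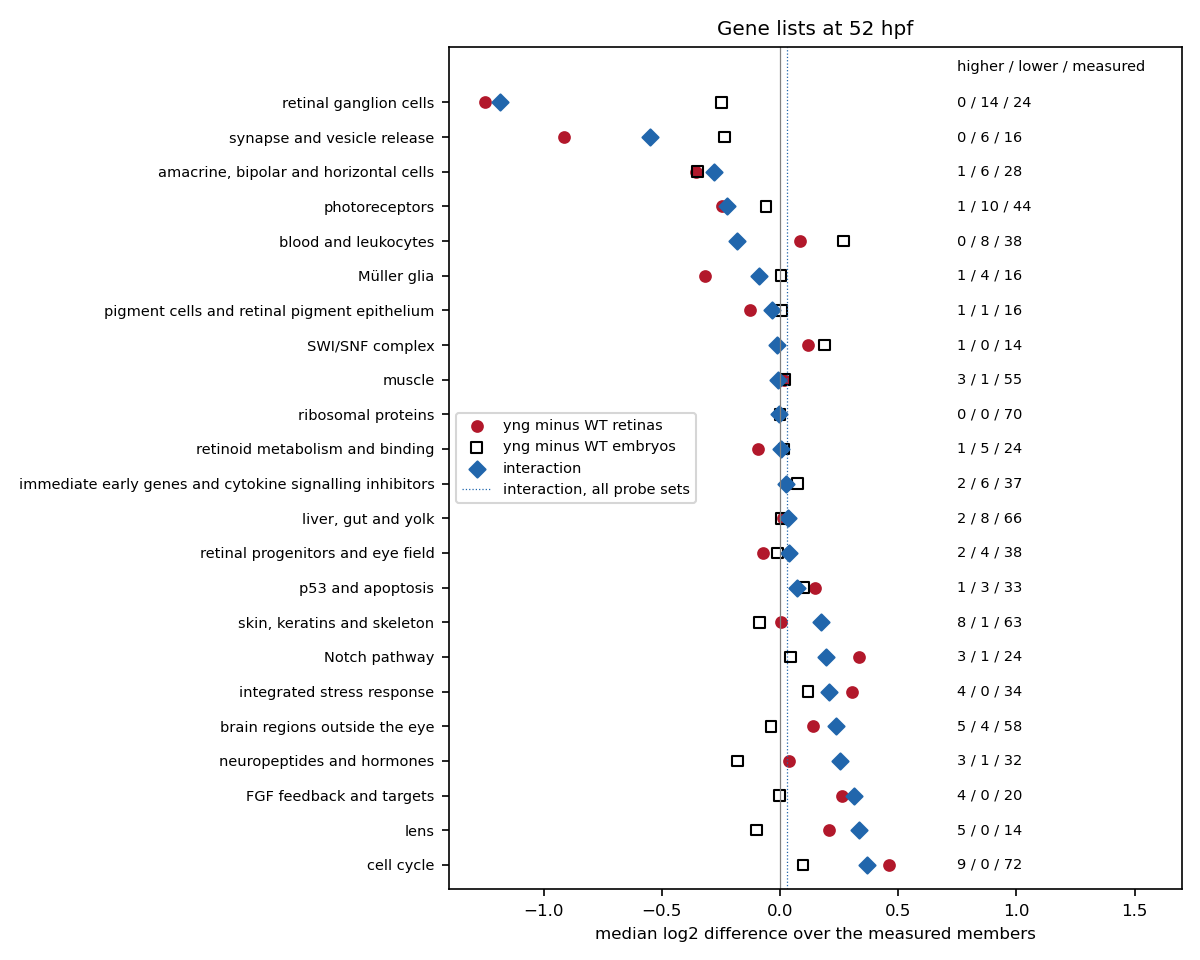
Median log2 difference over the measured members of each of 23 gene lists at 52 hpf, between yng and WT retinas (red circles), between yng and WT embryos (open squares), and for the interaction (blue diamonds); numbers at the right give members with a higher interaction, with a lower one and measured. Ganglion cell genes lie lowest at -1.18 and cell cycle genes highest at 0.37, against 0.03 for all probe sets (dotted line).

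The 20 probe sets that changed in opposite directions in the 2 tissues comprised 10 that fell in retinas and rose in embryos and 10 that rose in retinas and fell in embryos. The clusterin gene clu, for a secreted chaperone, measured 30.7, 30.8 and 28.6 in yng retinas, against 62.6, 64.2 and 79.8 in WT retinas, and 364, 509 and 438 in yng embryos, against 176, 223 and 224 in WT embryos. The genotypes were separate in both tissues, and the interaction was -1.93 (SE 0.26, adjusted p = 6.08e-05). The cytokine signalling inhibitor socs3a measured 62.7, 53.9 and 62.6 in yng retinas, against 108, 74.7 and 89.2 in WT retinas, and 274, 384 and 376 in yng embryos, against 131, 176 and 169.6 in WT embryos (interaction -1.55, SE 0.24, adjusted p = 0.00029). The Kruppel-like factor gene klf2b had a fall of 0.58 in retinas, a rise of 0.59 in embryos and an interaction of -1.17 (SE 0.23, adjusted p = 0.00223). On the other side gata3, for a transcription factor of neurons and blood, measured 56.3, 47.4 and 45.7 in yng retinas, against 22.9, 25.6 and 19.7 in WT retinas, and 668, 507 and 553 in yng embryos, against 921, 968 and 866 in WT embryos (interaction 1.45, SE 0.28, adjusted p = 0.00204). The slow myosin heavy chain gene myh7 fell by 0.83 in embryos; its retinal values of 17.4 to 27.6 in yng and 3.41 to 13.3 in WT were near the lower end of the scale, and the interaction was 1.47 (SE 0.23, adjusted p = 0.000254). The steroid hydroxylase gene cyp17a1 had an interaction of 2.04 (SE 0.23, adjusted p = 1.07e-05) on 1 probe set and 0.40 on another, which did not pass (adjusted p = 0.416). The cohesin gene stag1b had the smallest interaction of the 20, 0.61, with a rise of 0.31 in retinas and a fall of 0.30 in embryos.

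Where both tissues moved in one direction, the interaction marked unequal size. Of the 95 such probe sets, 73 fell and 22 rose in both. The glucocorticoid-responsive gene fkbp5 measured 113, 97.5 and 111 in yng retinas, against 132, 189.8 and 279 in WT retinas, and 111, 101 and 99.7 in yng embryos, against 487, 396 and 542 in WT embryos. It fell by 1.99 in embryos and fell by 0.76 in retinas, and the interaction was 1.24 (SE 0.29, adjusted p = 0.0101). The small GTPase gene rasd1 measured 261, 273 and 357 in yng retinas, against 54.5, 62.1 and 48.8 in WT retinas, and rose in both tissues, by 2.2 in retinas and by 0.62 in embryos (interaction 1.58, SE 0.22, adjusted p = 8.94e-05). The polo-like kinase gene plk3 rose by 1.53 in retinas and by 0.54 in embryos, and its interaction was 0.99 (SE 0.20, adjusted p = 0.00325).

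The other lists are read against the 6.84% of all probe sets called. Genes of brain regions outside the eye had 5 higher and 4 lower interactions among 58 (15.5% called, median 0.24), 3 higher on leaving out any 1 of 6 arrays, with eomesa, a T-box gene also on the ganglion cell list, at -1.48 and gata3 as above. Neuropeptide and hormone genes had 3 higher and 1 lower among 32 (12.5%), the lower one being adcyap1b, for a pituitary adenylate cyclase-activating peptide, with 44.9, 54.1 and 46.4 in yng retinas, against 346, 410.3 and 421 in WT retinas, and an interaction of -2.16 (SE 0.22, adjusted p = 1.59e-06). Of 33 p53 and apoptosis genes, 3 were lower and 1 was higher (12.1%), with 1 lower on leaving out any 1 of 5 arrays; tp53inp1, a p53 target, fell by 1.39 in retinas and by 0.44 in embryos (interaction -0.95, SE 0.17, adjusted p = 0.00102), and the initiator caspase gene casp8 had an interaction of 0.92 (SE 0.23, adjusted p = 0.016), a call lost without WT embryo replicate 2 or yng retina replicate 1 or 2. Of 55 muscle genes, 3 were higher and 1 was lower (7.27%, near the share of all probe sets), the lower one being the parvalbumin gene pvalb3, which rose by 1.60 in embryos (interaction -1.55, SE 0.28, adjusted p = 0.00091). Pigment genes had 1 call each way among 16 (12.5%), slc2a11b with 1.64 and the purine synthesis gene paics with -1.09. Among 14 SWI/SNF genes smarca4a alone passed (7.14%), and among 70 ribosomal protein genes limma called 0, also with the block, and 0 had an unadjusted p under 0.05.

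The 36 hpf arrays gave the same measure at the earlier age; they entered no group mean of 52 hpf but shared its normalization and its estimate of the spread. Fitted on the arrays of 52 hpf alone, 1102 probe sets passed at 52 hpf, 929 of them among the 1061. At 36 hpf 367 probe sets (2.37%) passed, 131 higher (0.845%) and 236 lower (1.52%). Of the 396 higher calls of 52 hpf, 353 (89.1%) had the same sign at 36 hpf and 77 passed there in the same direction; of the 665 lower calls, 529 (79.5%) had the same sign and 139 passed. Over all probe sets, 64.5% had the same sign at both ages. The median interaction of the higher calls was 0.86 at 52 hpf and 0.34 at 36 hpf, that of the lower calls -1.17 at 52 hpf and -0.39 at 36 hpf. The calls were chosen by their 52 hpf value, which favours larger medians at that age. These medians therefore do not show a change with age. The change between ages was itself tested and passed in 135 probe sets (0.871%), 35 higher (0.226%) and 100 lower (0.645%) at 52 hpf. With the replicate number as a block 292 passed. Without the yng retina array with the filling error, 372 probe sets passed at 36 hpf, 348 of the 396 and 527 of the 665 had the same sign, 69 and 134 of these passed, and 162 changes with age passed.

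Some named genes passed at 36 hpf already, and others did not pass there, which does not show that they were equal at that age. Of the 1061 calls, 941 had no change between ages past the threshold. For inab the interaction was -2.10 at 52 hpf and -3.09 at 36 hpf (adjusted p = 6.19e-07 at 36 hpf), and syt1a had -2.01 at 52 hpf against -2.33 at 36 hpf. Neither change between ages passed. For calb2b it was -2.38 at 52 hpf and 0.60 at 36 hpf, the second of which did not pass, and the change of -2.99 passed (adjusted p = 0.000453). The gene slc18a3a turned its sign, with -2.65 at 52 hpf and 0.76 at 36 hpf (adjusted p = 0.0155 at 36 hpf), and its change was -3.42 (adjusted p = 5.27e-08). Of the AP-1 genes, junba had 0.096 and fosl2 -0.024 at 36 hpf, and both changes passed. In the embryo-led group, aebp1b had 2.60 at 36 hpf, and the capn2l probe set listed at 0 in retinas of 52 hpf had 2.95. The gene anxa1b had 0.60 at 36 hpf, which did not pass, and a change of 2.70 (adjusted p = 0.00455).

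**Figure D4:**
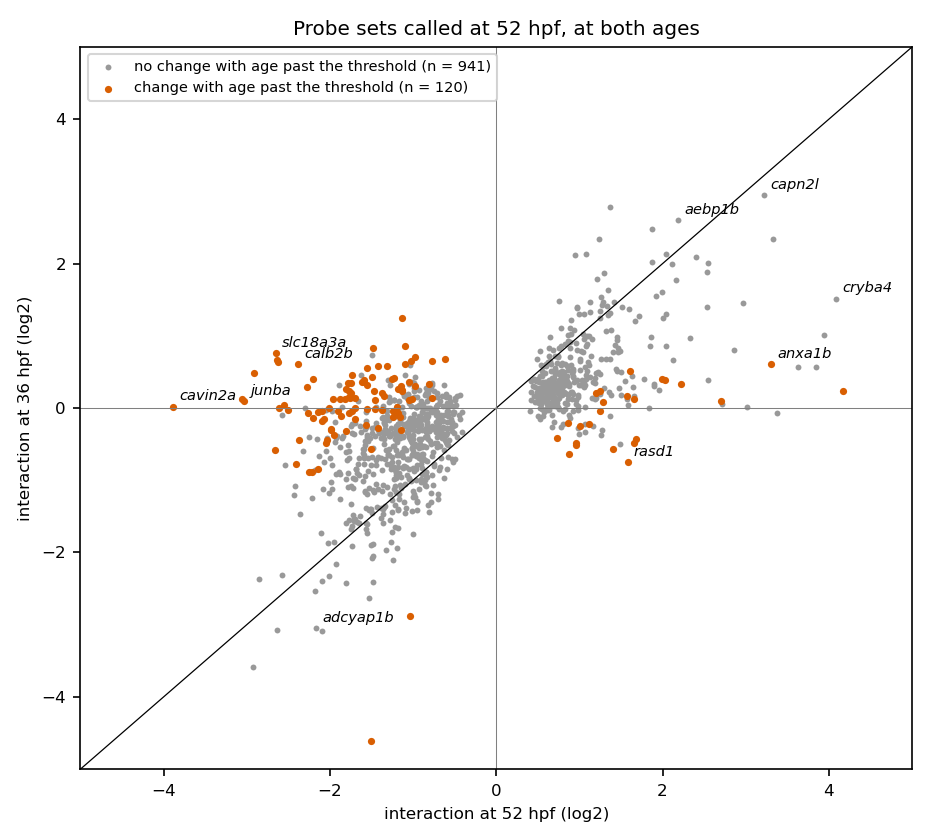
Interaction at 52 hpf (horizontal axis, log2) against the interaction at 36 hpf (vertical axis, log2) for the 1061 probe sets called at 52 hpf; orange points are the 120 whose change between ages passed the threshold, and the diagonal marks equal values. Points called below 0 at 52 hpf whose change between ages was also called below 0, such as cavin2a and junba, make up 94 of the 120 orange points.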

How the data were processed

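RNA of zebrafish pools was measured on Affymetrix zebrafish arrays. The authors deposited an intensity for every probe set on every array, linear and between 0 and 20110; the sources used here do not give their probe summary or array scaling. A second deposited record per array, which held other values and no expression data, gave the fluidics station, module and order of hybridization days. After 115 controls were left out of 15617 probe sets, 15502 were tested, of which 10795 have 1 gene symbol in the platform annotation, 135 several and 4572 none. Quantile normalization over 24 arrays was followed by log2(value + 16). In limma 3.58.1 (R 4.3.3) each group had its own mean, leaving 16 residual degrees of freedom; moderated two-sided p-values were adjusted across the 15502 probe sets (Benjamini-Hochberg) with a threshold of 0.05. Other tools were Python 3.11.15, pandas 2.3.3 and, for plots, matplotlib 3.10.9. The number of arrays limits the precision, and p-values measure the spread between pools, estimated once per probe set over all groups. Without the replicate number as a block, that spread includes variation shared by arrays of equal number. A group listed at 0 on all its arrays adds almost no spread to that estimate. For such probe sets the p-value does not measure the spread within that group.

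The members, the 23 gene lists and the tests were chosen with earlier results of these data known. Each list used the brightest probe set of a gene. Genes were named by rule: smarca4a; the 12 largest called interactions in each direction; the 4 largest in each class of retinal and embryo calls; and up to 4 members of each list, passed or not. Names of uncharacterised clones were left out. Not all of the 117 probe sets of this rule are described, and probe sets of a described gene that disagreed are given beside it.

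Pairing by replicate number was checked on deviations from group means. All 18 pairs of 52 hpf arrays with equal numbers correlated above 0.1 (0.174 to 0.477, median 0.345), so the numbers pair the samples. The median for unequal numbers was -0.174. Deviations from a group mean cancel within the group, so this negative value follows from the positive ones and is no separate evidence. The number followed hybridization days 1, 2 and 3, except that WT embryo replicate 3 was hybridized on day 4. A second fit therefore held the replicate number as a block. The fit was tested on simulated data. The first form of that test made more false calls than its limit allowed, many of them where a dim retinal level met a genotype difference in embryos. The test was passed after such probe sets were simulated without a genotype difference, so it does not cover them. Its noise was independent between arrays, so it does not cover the pairing by number either. Of simulated interactions of 0.5, 1 and 2, it recovered 8.96%, 65.7% and 90.9%, with 8 false calls among the other probe sets. The simulated interactions were placed only in probe sets above a minimum mean level, so these rates do not cover dimmer ones.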

Additional observations from a re-analysis of the deposited data

Results flagged for a closer look

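The genotype difference was unlike in retinas and embryos, by the interaction test, in 1061 probe sets at 52 hpf. In 20 probe sets each tissue passed on its own in the opposite direction to the other. The interaction itself was unlike at 52 and 36 hpf in 135 probe sets.

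Of the named genes, 23 passed the test of the change between ages, given here as the 52 hpf interaction minus the 36 hpf interaction on the log2 scale. Of all probe sets 0.871% passed it. Genes were named for large 52 hpf interactions, which are part of this change, so the count of 23 is raised by the naming rule. The change was below 0 for cavin2a (-3.91), slc18a3a (-3.42), bhmt (-3.40), apobb.1 (-3.30), pvalb6 (-3.26), junba (-3.13), calb2b (-2.99), scrn2 (-2.60), rbp2a (-2.60), gnat1 (-2.56) and fosl2 (-2.48). It was also below 0 for lrrc4.1 (-2.19), neurod6a (-2.09), calb2a (-1.93), gngt2b (-1.92), dusp2 (-1.90) and rlbp1a (-1.45). It was above 0 for anxa1b (2.70), rasd1 (2.33), atf5a (1.89), stc2a (1.45), mybphb (1.33) and prss1 (1.2). Standard errors ran from 0.191 for cavin2a to 0.746 for apobb.1. Without yng retina replicate 1 of 36 hpf, whose fluidics record notes an error in filling, the change of calb2a did not pass (adjusted p = 0.0847) and the other 22 did.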

How the results depend on the processing

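The 1061 calls of the interaction at 52 hpf became 1971 with the replicate block, 1760 with the hybridization day as a block, 536 with replicate numbers 1 and 2 only (added after seeing the data) and 580 with a log2 difference of at least 1. The 3057 retinal calls became 4818, 4770 and 1994 under the first 3 of these settings, the 915 embryo calls 2116, 1458 and 357, the 367 interactions at 36 hpf 816, 765 and 228, and the 135 changes with age 292, 215 and 33. The changes with age fell to 72 at a log offset of 1. Leaving out 1 array gave 603 (without yng embryo replicate 3) to 914 embryo calls, the highest without yng retina replicate 1 of 36 hpf (added after seeing the data, for an error in filling). The 10854 tissue differences in WT became 7043 without quantile normalization, 7083 with normalization within each tissue and 6553 with an intensity of at least 100 in both tissues (added after seeing the data); their split of 7725 higher and 3129 lower became 2606 and 4437 without normalization, so that no level was compared between tissues by its test. The share of higher calls in the interaction, 37.3%, was 44.9% with the replicate block and 45.6% with the hybridization day as a block. It was 29.3% with replicate numbers 1 and 2 only and 31.8% without quantile normalization. The interaction calls were 841 to 938 with 1 array of 52 hpf left out.

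Of the 94 described or named probe sets past the threshold, 57 stayed past it in each alternative that tested them (24 to 26 of 26, since filters on intensity left some out; 41 of the 57 were tested in all 26), 37 were lost in at least 1 and 0 changed sign. Of the 23 not past it, 13 passed in at least 1. The block changed the call of 9 of these, of which those not given above were nptx1l (adjusted p = 0.00144), bcl7ba (0.0311), pmelb (0.0282), mthfd2 (0.0129) and en2b (0.0207), all past the threshold with the block. Alternatives of scaling moved the median interaction of all probe sets by less than 0.1. Dim probe sets limit both sides, since 2488 of the 15502 did not reach an intensity of 50 in retinas and 1509 did not in embryos.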
